A study of Rattus norvegicus with 30 samples.

Results

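Oestrogens and potent androgens are made and removed by a short chain of enzymes, and 8 genes of that chain were followed here through the maturation of the rat testis in vivo and in organotypic culture. They are the rows of the expression table whose Entrez identifiers belong to *Cyp19a1* (25147), *Hsd17b1* (25322), *Esr1* (24890), *Esr2* (25149), *Srd5a1* (24950), *Akr1c14* (191574), *Hsd11b1* (25116) and *Sult1e1* (360268). All 8 were found among the 17322 genes of the table.

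Aromatase, the product of *Cyp19a1*, turns androgens into oestrogens, and the enzyme of *Hsd17b1* reduces oestrone to the more potent oestradiol, which acts through the receptors of *Esr1* and *Esr2*. Androgens can instead be reduced by the 5α-reductase of *Srd5a1* and then by the 3α-hydroxysteroid dehydrogenase of *Akr1c14*, a pair of steps for which the Leydig cells of the immature rat testis are known. *Sult1e1* encodes the sulfotransferase that inactivates oestrogens, and *Hsd11b1* the enzyme that regenerates active glucocorticoid within cells, which in the testis is best known from Leydig cells.

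Whole testes of Wistar Han rats were collected at 6 ages, in days postpartum (dpp): at 8.5, the age of explantation, at 14.5, then at 24.5, at 30.5, at 36.5 and at 53.5. Fragments of 8.5 dpp testes were kept on agarose for 6 days (D6), 16 days (D16), 22 days (D22) or 28 days (D28), in a serum-free medium with serum replacement, retinol and vitamin E. Cultures differ from testes in being pools of explants from several males with the necrotic centre removed. Each group held 3 libraries, except 14.5 dpp with 2, giving 29 libraries. The third testis of that age is labelled an outlier, and the authors excluded it for an expression profile unlike that of the other replicates. Its column was listed at 0 for every gene and was left out here. In age D6 corresponds to 14.5 dpp, D16 to 24.5 dpp, D22 to 30.5 dpp and D28 to 36.5 dpp.

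Levels are FPKM (fragments scaled to the length of the transcript and to the mapped reads of the library), so they can be compared between genes, but the number of reads behind a value is unknown. Between 12520 and 13563 genes were above 0 in a library. A listed 0 can be a failed estimate, since 248 genes were at 0 in 1 library and at 5 FPKM or more in another of the same group. Tests were made with limma on log2(FPKM + 1) over all genes with a group median of at least 0.5 FPKM, and differences below are on that scale, which understates the change of low genes. A gene was called higher or lower at an adjusted p of at most 0.05 when the medians of the groups also differed by a factor of 2 or more. These p-values measure the spread between libraries, which for cultures is the spread between pools.

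The makeup of the tissue moved with every comparison. Summed over 7 Leydig cell genes, the level lay between 146 and 306 FPKM at 14.5 dpp and between 228 and 379 FPKM at 36.5 dpp, against 16.8 to 24.3 FPKM at D6 and 25.4 to 37.3 FPKM at D28. None of these 7 genes was at 0 in a whole group. The sum of 10 Sertoli cell markers lay between 549 and 693 FPKM at 36.5 dpp and between 3661 and 4442 FPKM at D28, although one of them, *Gata1*, was at 0 in every group. The sum of 7 spermatid markers reached 3957 to 5774 FPKM at 36.5 dpp and did not pass 9.87 FPKM at D28, with *Prm1*, *Prm2*, *Tnp1* and *Acrv1* at 0 in all D28 libraries. These sums are of plain FPKM, so that a few abundant genes can carry them. The Sertoli sum lay between 1666 and 2314 FPKM at 14.5 dpp, but of 9 Sertoli genes tested only 1 was called at D28 against that age. Fewer cells of a type and less RNA per cell cannot be told apart in such bulk samples.

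**Figure D1:**
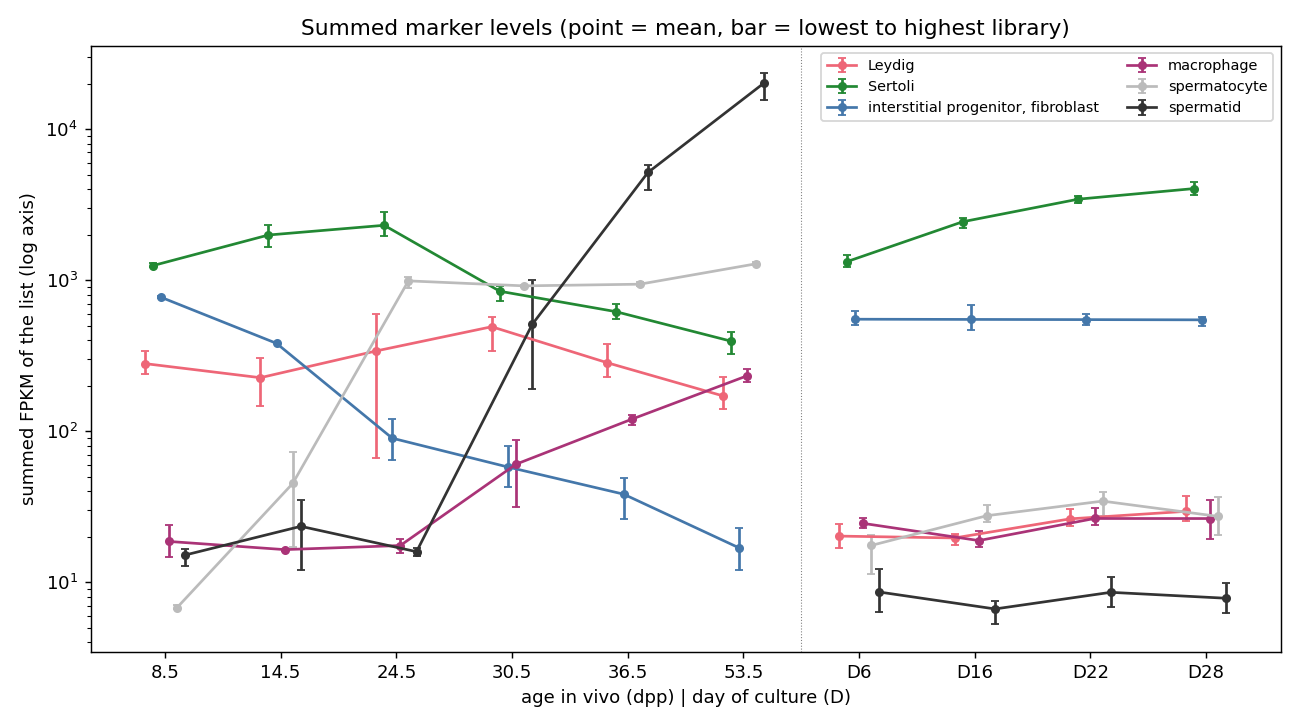
Summed FPKM (log axis) of marker lists of 6 cell types at each age in vivo (dpp) and each day of culture (D), with points for the group mean and bars from the lowest to the highest library. Leydig sums lie at 37.3 FPKM or less in culture and at 66.3 FPKM or more in vivo, while Sertoli sums fall with age in vivo after 24.5 dpp and rise in culture.

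The members fell into 3 kinds of level. *Akr1c14*, *Srd5a1* and *Hsd11b1* had group means of several FPKM or more in at least one condition, reaching 33.8, 8.31 and 19.1 FPKM. *Esr1* and *Hsd17b1* stayed at or below group means of 2.16 and 2.94 FPKM. *Cyp19a1* exceeded 0.5 FPKM in a single age group, and *Esr2* and *Sult1e1* in none, so the last 2 passed the filter in no comparison and have no test.

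**Figure D2:**
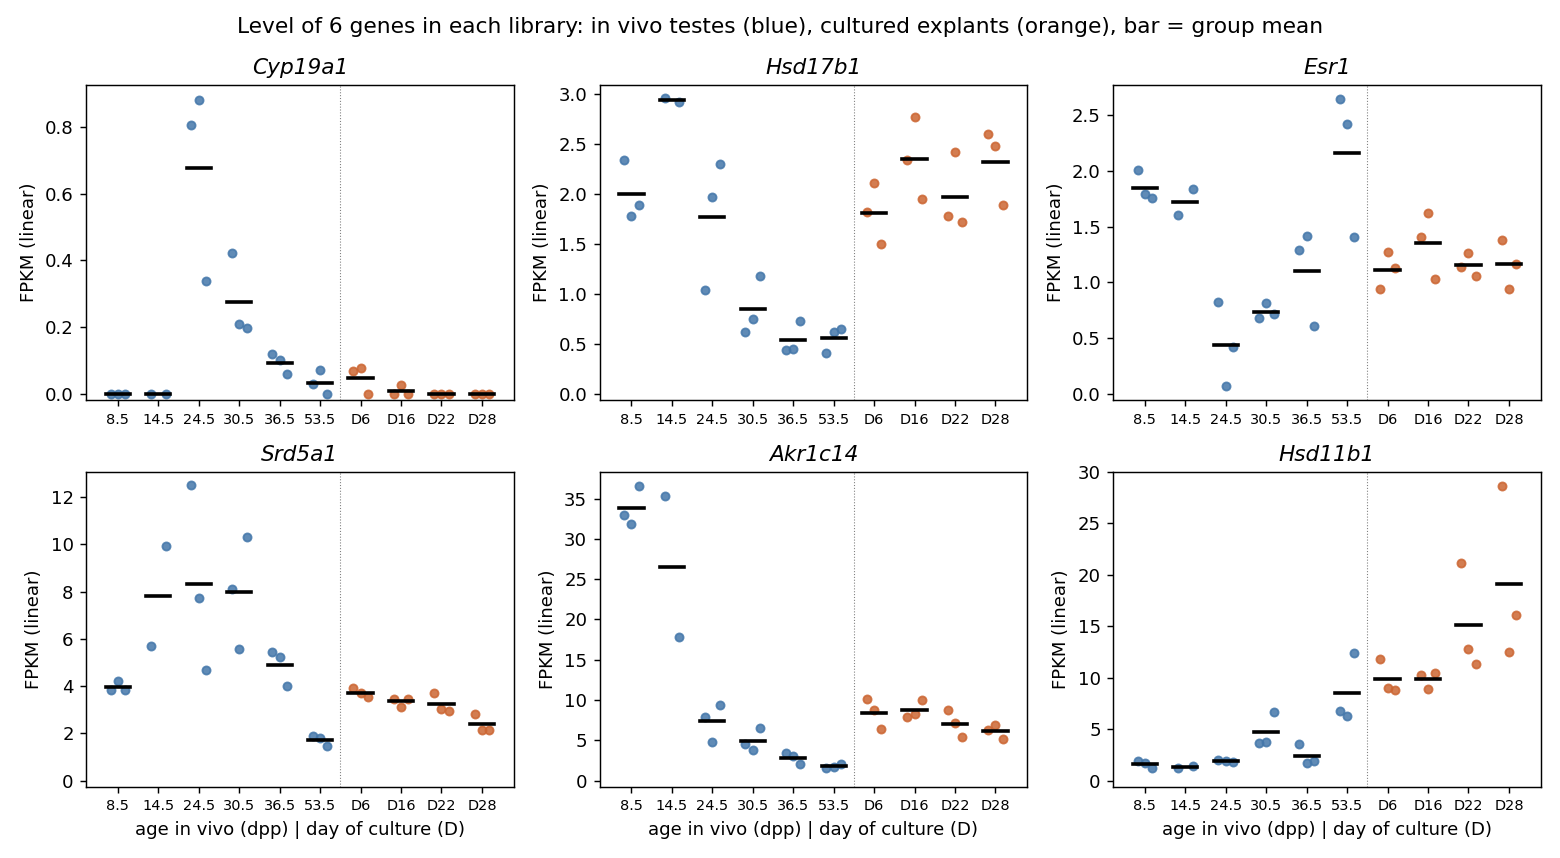
FPKM (linear axes, each from 0) of 6 members in each library, at 6 ages in vivo (blue, dpp) and 4 times of culture (orange, D), with bars at group means. *Hsd11b1* lies highest at D22 and D28, *Akr1c14* at 8.5 and 14.5 dpp, *Srd5a1* from 14.5 to 30.5 dpp, and *Cyp19a1* at 24.5 dpp.

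Against the 14.5 dpp testis, 5 members could be tested, and the same 3 of them were called at each of D16, D22 and D28: *Hsd11b1* higher, and *Srd5a1* and *Akr1c14* lower. Of all genes tested, 11.9% were called at D16, 12.9% at D22 and 13.6% at D28. At D6 these 3 genes were called in the same directions, against 7.94% of all genes, but without any 1 of the D6 libraries, with no filter, or with scaling to Sertoli cell markers only *Hsd11b1* was called. Against testes of matching age *Hsd11b1* was again called higher and *Srd5a1* lower at D16, D22 and D28, though *Hsd11b1* turned to -0.42 at D22 with that scaling. Of these 3 times *Akr1c14* was called at D28 alone, where it was higher (-1.30 with that scaling). At D16 against 24.5 dpp 4 of 6 members were called (43.6% of all genes), among them *Cyp19a1*, which was tested only because of its level at 24.5 dpp, at D22 against 30.5 dpp 3 of 5 (65%) and at D28 against 36.5 dpp 4 of 5 (70.3%). With such backgrounds a call at the later ages says little about these members in particular. Comparisons with the same age share its libraries.

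Across the 6 ages in vivo all 6 members tested were called (F test), as were 90.2% of all genes, and here too *Cyp19a1* passed the filter through 24.5 dpp alone. Across the 4 culture times none of 5 was called by limma, although 2 had an unadjusted p under 0.05, with 6.71% of all genes called.

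**Figure D3:**
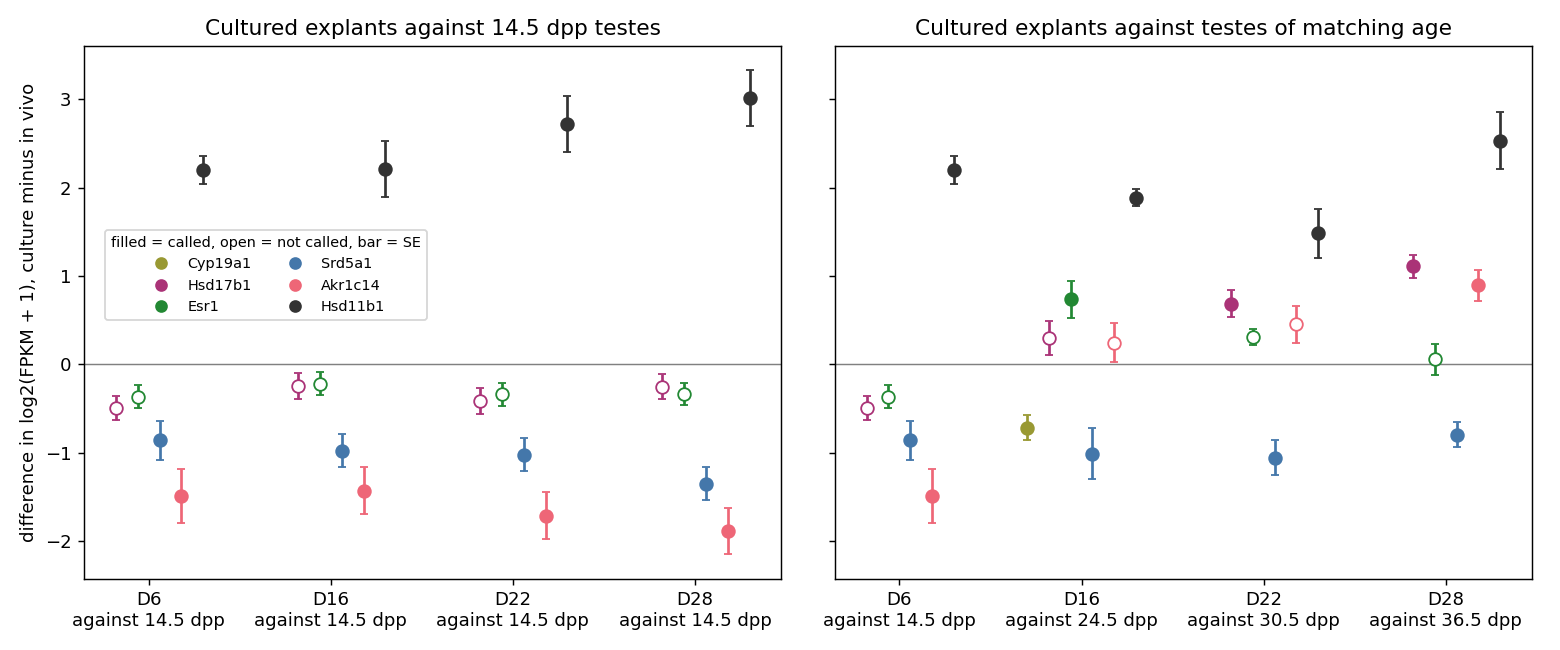
Difference in log2(FPKM + 1) between cultured explants and testes, with SE, for the members tested; the left panel compares with 14.5 dpp and the right panel with testes of matching age. *Hsd11b1* is above 0 in all 8 positions and *Srd5a1* below 0 in all, while *Akr1c14* lies below 0 against 14.5 dpp and at 0.89 at D28 against 36.5 dpp.

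*Cyp19a1* was a gene of a narrow window in vivo. It was listed at 0 in all libraries of 8.5 and 14.5 dpp, and stood at 0.807, 0.882 and 0.339 FPKM at 24.5 dpp. At 30.5 dpp the 3 testes held 0.421, 0.211 and 0.197 FPKM, and by 36.5 dpp none was above 0.119 FPKM. The explants passed the same ages without that window. At D16 a single library was above 0, at 0.0254 FPKM, and at D22 and D28 all 6 were listed at 0, while 2 of the 3 D6 libraries held 0.0681 and 0.0785 FPKM.

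*Cyp19a1* passed the filter through 24.5 dpp alone, with a median of 0.807 FPKM there. In the filtered fits it could therefore come out only as higher at that age, and its differences are given as a description. It was higher at 24.5 than at 14.5 dpp by 0.73 ± 0.13 (SE), in a step in which 37.7% of all genes were called. From 24.5 to 30.5 dpp the difference was -0.38 ± 0.11 (SE, 39.8% of all genes called), and from 24.5 dpp testes to D16 explants -0.72 ± 0.14 (SE). With no filter on low values limma called all 3 of these differences, with adjusted p-values of 0.000181, 0.00685 and 0.00554. At a filter of 1 FPKM the gene had no test. The difference from 24.5 to 30.5 dpp was not called with median scaling and became 0.82 when libraries were scaled to Sertoli cell markers. No ratio can be given against groups listed at 0. In the order of the group means, 24.5 and 30.5 dpp overlapped, and 30.5 dpp stood apart from 36.5 dpp, the next group down. The summed spermatocyte markers moved in the same step, from 17.2 to 73.0 FPKM at 14.5 dpp to between 892 and 1055 FPKM at 24.5 dpp, and stayed between 25.1 and 32.3 FPKM at D16; their part in the difference was not tested.

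*Hsd17b1*, the next enzyme of oestradiol synthesis, fell after 14.5 dpp in vivo and changed little in culture. The 2 testes of 14.5 dpp held 2.96 and 2.92 FPKM, above every other library. From there the level went down to 0.441, 0.449 and 0.731 FPKM at 36.5 dpp, and the step from 24.5 to 30.5 dpp was called (-0.56 ± 0.16, SE, adjusted p = 0.00634), though it was lost with median scaling and without 24.5 dpp replicate 3, and was 0.64 with scaling to Sertoli cell markers. In culture the values ran from 1.50 to 2.11 FPKM at D6 and stood at 2.60, 2.48 and 1.89 FPKM at D28. The 3 D28 libraries lay above all libraries of 30.5 dpp and older.

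Against 14.5 dpp *Hsd17b1* was not called in culture, with differences of -0.24, -0.41 and -0.25 ± 0.15 (SE) at D16, D22 and D28 (F test, adjusted p = 0.186). At D6 the difference was -0.49 ± 0.14 (SE, limma, adjusted p = 0.061). The contrast of D22 alone had an adjusted p of 0.0499 by limma, without reaching the ratio of 2. With 2 libraries at 14.5 dpp a lower level in culture is not excluded. It was called higher at D22 against 30.5 dpp (0.69 ± 0.15, SE, adjusted p = 0.00371) and at D28 against 36.5 dpp (1.11 ± 0.13, SE, adjusted p = 0.000116). The latter was tested through D28, since the median of 36.5 dpp was under the floor, and was called with no filter as well (adjusted p = 0.000266). Both values turned negative, to -1.21 and -1.08, when libraries were scaled to Sertoli cell markers. In this comparison at D28 the median over all genes moved from 0.64 to -1.54 with that scaling, so that relative to other genes *Hsd17b1* was higher by about the same amount with either. The D22 call was also lost with quantile normalization, with median scaling and without either of 30.5 dpp replicates 1 and 2.

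*Esr1*, the oestrogen receptor α gene, dipped at 24.5 dpp and did not leave a narrow range in culture. The testes of 8.5 and 14.5 dpp held between 1.60 and 2.00 FPKM. At 24.5 dpp the values were 0.819, 0.0718 and 0.420 FPKM, and the step was called (-0.95 ± 0.22, SE, adjusted p = 0.00164), but lost with scaling to Sertoli cell markers (-0.31). The median of 24.5 dpp was under the floor, so the gene was tested through the other group, here and against D16; both calls were kept with no filter (adjusted p = 0.00284 and 0.0252). The level was higher again at 53.5 dpp, at 2.64, 2.42 and 1.41 FPKM, but that step was not called (0.58 ± 0.20, SE, adjusted p = 0.0271, with a ratio of medians under 2). It was called with each other scaling and without 36.5 dpp replicate 1 or 2. The 12 cultured libraries stayed between 0.938 and 1.62 FPKM, below all 8.5 dpp testes (1.75 FPKM or more). At D6 the difference from 8.5 dpp was -0.43 ± 0.09 (SE, limma, adjusted p = 0.0078), without reaching the ratio of 2.

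Cultured explants did not pass the test for *Esr1* against 14.5 dpp (F test, adjusted p = 0.167), with differences from -0.22 to -0.34 ± 0.13 (SE). D16 explants were called higher than 24.5 dpp testes (0.73 ± 0.20, SE, adjusted p = 0.0152). That call was lost without D16 replicate 2 and with scaling to Sertoli cell markers, where the difference was 0.21. At D28 against 36.5 dpp the difference was 0.06 ± 0.18 (SE, adjusted p = 0.777), and -2.13 with that scaling. All neighbours in the order of the 10 group means overlapped.

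*Esr2*, the oestrogen receptor β gene, was near the lower end of the scale throughout. Its highest library, at D22, held 0.229 FPKM. The group means were 0.101 FPKM at 8.5 dpp and 0.183 FPKM at 14.5 dpp, and from 30.5 dpp on a single testis was above 0, at 0.0140 FPKM. In culture 11 of 12 libraries were above 0, with group means between 0.0742 and 0.129 FPKM. Such levels allow no test here.

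*Srd5a1* and *Akr1c14* act one after the other, and their promoters are shown because the 2 genes, though both lower in culture than at 14.5 dpp, differed in vivo. RefSeq start sites of the rat assembly GRCr8 were matched for 5 of the 8 members, and the 250 bases before the start are given 5′ to 3′. *Srd5a1* lies on the plus strand (chr1:35514664-35514913) and *Akr1c14* on the minus strand (chr17:71083185-71083434). Capitals mark matches, on either strand, to the GC box GGGCGG or the CCAAT box.
Srd5a1: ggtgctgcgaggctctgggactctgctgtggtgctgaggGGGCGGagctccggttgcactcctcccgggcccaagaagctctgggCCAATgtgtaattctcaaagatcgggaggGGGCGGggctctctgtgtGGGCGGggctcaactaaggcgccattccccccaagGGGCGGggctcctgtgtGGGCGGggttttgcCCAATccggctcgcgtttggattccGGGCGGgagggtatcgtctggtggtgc
Akr1c14: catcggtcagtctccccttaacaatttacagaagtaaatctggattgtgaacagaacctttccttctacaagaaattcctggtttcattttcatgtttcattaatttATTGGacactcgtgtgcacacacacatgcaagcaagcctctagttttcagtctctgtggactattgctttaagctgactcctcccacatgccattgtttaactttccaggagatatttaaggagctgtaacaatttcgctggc
The *Srd5a1* window held 6 GC boxes and 2 CCAAT boxes with 66.4% G and C, and the *Akr1c14* window no GC box and 1 CCAAT box with 40.4%. Of 27457 such windows, 32.4% held a GC box and 34.3% a CCAAT box, and the median G and C content was 52.0%. The nuclear receptor half-site AGGTCA (13.7% of windows) and the TATA box TATAAA (13.1%) were in neither. These letters are a description of the sequence, not sites of binding.

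*Srd5a1* was highest in the middle of the first wave of spermatogenesis in vivo. It stood at 3.81, 4.21 and 3.85 FPKM at 8.5 dpp, and at 5.69 and 9.95 FPKM at 14.5 dpp. The group means of 24.5 and 30.5 dpp were 8.31 ± 3.95 and 7.99 ± 2.37 FPKM (SD, n = 3), and their libraries overlapped with each other and with 14.5 dpp. At 53.5 dpp the 3 testes held 1.87, 1.79 and 1.47 FPKM, the lowest of all groups, and the step from 36.5 dpp was called (-1.11 ± 0.27, SE, adjusted p = 0.00595, 7.5% of all genes called), though not with scaling to Sertoli cell markers (-0.68). A rise from 8.5 to 14.5 dpp was just called (0.79 ± 0.30, SE, adjusted p = 0.0482, 16.4% of all genes called) and was lost in most alternatives, among them without 14.5 dpp replicate 2.

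The explants did not show the juvenile maximum of *Srd5a1*. Their libraries lay between 3.54 and 3.90 FPKM at D6, close to the 8.5 dpp testes from which the explants came (difference -0.07 ± 0.08, SE, adjusted p = 0.489), and at 2.83, 2.15 and 2.15 FPKM at D28. The levels were lower than at 14.5 dpp by differences of -0.98, -1.02 and -1.35 ± 0.19 (SE) at D16, D22 and D28 (F test, adjusted p = 0.00295). The calls at D16 and D22 were lost without 14.5 dpp replicate 2. Explants were also lower than testes of matching age at D16 (-1.01 ± 0.29, SE, adjusted p = 0.0173), D22 (-1.06 ± 0.20, adjusted p = 0.00189) and D28 (-0.80 ± 0.14, adjusted p = 0.00114). The D16 call was lost without D16 replicate 2 or 24.5 dpp replicate 1. Over the 4 culture times *Srd5a1* had the lowest adjusted p of the members (F test, 0.0225), without reaching the ratio of 2.

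*Akr1c14* was the most abundant member at 8.5 and 14.5 dpp. It stood at 32.9, 31.9 and 36.6 FPKM at 8.5 dpp and at 35.3 and 17.8 FPKM at 14.5 dpp. By 24.5 dpp the testes held 7.93, 4.84 and 9.42 FPKM, a called fall (-1.68 ± 0.28, SE, adjusted p = 0.000135), and at 53.5 dpp between 1.61 and 2.03 FPKM. The mean of 8.5 dpp was 18.9 times that of 53.5 dpp.

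In culture *Akr1c14* dropped early and then changed little. At D6 the libraries held 10.1, 8.73 and 6.43 FPKM, and the difference from 8.5 dpp was -1.90 ± 0.15 (SE, adjusted p = 0.00013, 16.3% of all genes called). At D28 the values were 6.32, 6.84 and 5.14 FPKM. Against 14.5 dpp it was lower by -1.43, -1.71 and -1.89 ± 0.26 (SE) at D16, D22 and D28 (F test, adjusted p = 0.00239). The gene belongs to a list that the study itself chose from these comparisons with 14.5 dpp, so that this difference is not independent evidence. Against 36.5 dpp, where the testes had gone down to between 2.03 and 3.46 FPKM, D28 explants were called higher (0.89 ± 0.17, SE, adjusted p = 0.00176). This last call was lost with quantile normalization, with median scaling and without 36.5 dpp replicate 3 or D28 replicate 1 or 2, and the value was -1.30 with scaling to Sertoli cell markers. The Leydig cell sum given above was lower over the same early period of culture, with 239 to 339 FPKM at 8.5 dpp and at most 24.3 FPKM at D6, and its part in the fall of *Akr1c14* was not tested.

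A ratio of 2 genes within a library does not depend on how libraries are scaled. *Akr1c14* was 7.58 to 9.50 times as high as *Srd5a1* at 8.5 dpp, and 6.20 and 1.79 times in the 2 libraries of 14.5 dpp. At 24.5 dpp it was 0.633, 0.626 and 2.01, and at 30.5 and 36.5 dpp *Srd5a1* was the higher gene in all testes, with a ratio between 0.510 and 0.678. At 53.5 dpp it lay between 0.861 and 1.38. In the 12 cultured libraries it lay between 1.82 and 3.18, at every time, above all testes of 30.5 dpp and older and below those of 8.5 dpp. The ratio was looked at after the levels were seen and has no test.

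**Figure D4:**
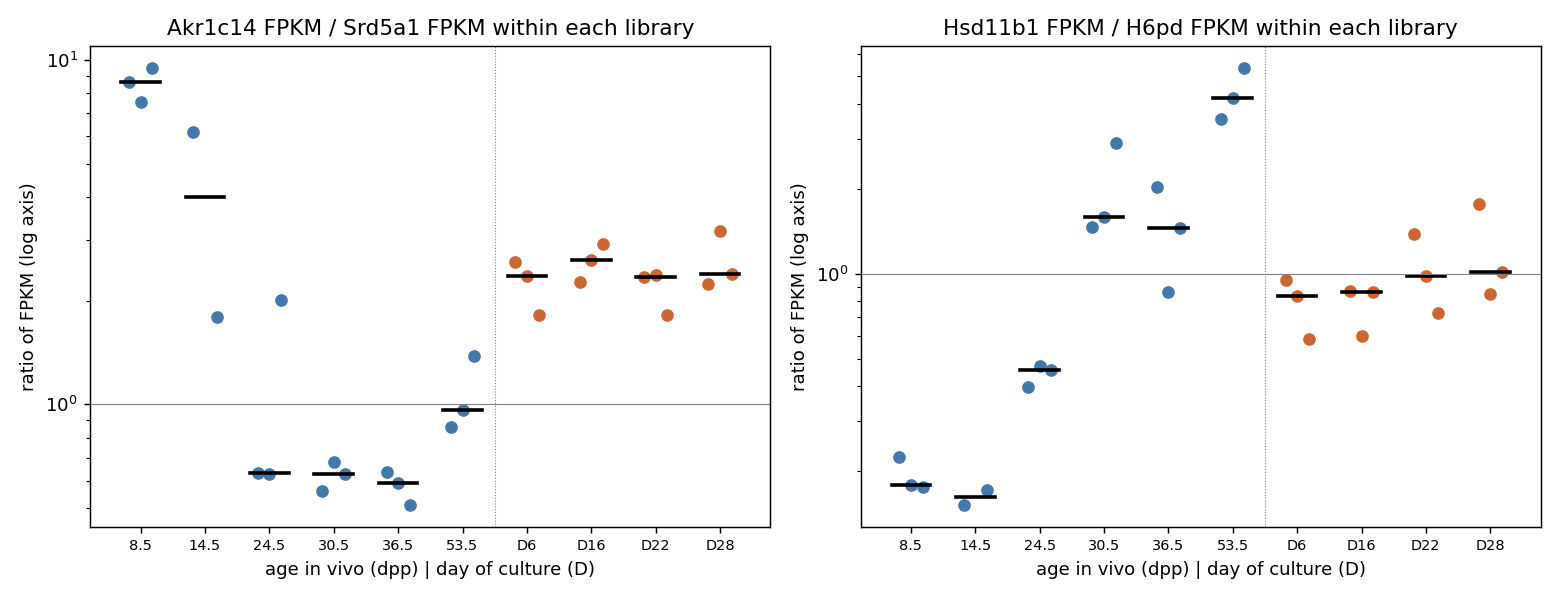
Ratio of *Akr1c14* to *Srd5a1* (left) and of *Hsd11b1* to *H6pd* (right), in FPKM, in each library (points, log axes) with group medians (bars), for ages in vivo (blue) and days of culture (orange). The left ratio falls from a median of 8.64 at 8.5 dpp to 0.589 at 36.5 dpp and stays between 1.82 and 3.18 in culture; the right ratio is highest at 53.5 dpp.

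*Hsd11b1* had the largest difference of any member in culture. Testes held 1.95, 1.71 and 1.20 FPKM at 8.5 dpp, 1.25 and 1.46 FPKM at 14.5 dpp and 2.05, 1.93 and 1.85 FPKM at 24.5 dpp. The level was 3.59, 1.68 and 1.87 FPKM at 36.5 dpp and rose to 6.76, 6.31 and 12.4 FPKM at 53.5 dpp (1.47 ± 0.25, SE, adjusted p = 0.00109). At 30.5 dpp the values were 3.67, 3.79 and 6.65 FPKM, a difference from 24.5 dpp of 0.92 ± 0.25 (SE, adjusted p = 0.00448) that missed the ratio of 2 and was called with each other scaling and without 24.5 dpp replicate 1 or 30.5 dpp replicate 1 or 2. These values were followed by a called fall to 36.5 dpp (-0.76 ± 0.25, SE, adjusted p = 0.0287, 8.27% of all genes called), which was lost without 30.5 dpp replicate 3 or 36.5 dpp replicate 2 or 3 and with each other scaling.

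Explants held 11.9, 8.99 and 8.78 FPKM of *Hsd11b1* already at D6, and 28.6, 12.5 and 16.1 FPKM at D28. All cultured libraries were above all testes of 8.5 to 36.5 dpp, the 3 of D28 were above those of 53.5 dpp as well, and D6, D16 and D22 overlapped with 53.5 dpp. At D6 the mean was 7.29 times that of 14.5 dpp and at D28 14.1 times. The differences from 14.5 dpp were 2.20 ± 0.16 (SE, adjusted p = 0.00135) at D6, and 2.21, 2.72 and 3.01 ± 0.32 (SE) at D16, D22 and D28 (F test, adjusted p = 0.000535). From 8.5 dpp to D6 the difference was 2.05 ± 0.15 (SE, adjusted p = 9.5e-05). These calls, and that at D16 against 24.5 dpp (1.88 ± 0.10, SE, adjusted p = 1.17e-05), were kept in every alternative run.

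At D22 against 30.5 dpp *Hsd11b1* was higher by 1.49 ± 0.28 (SE, adjusted p = 0.00168) and at D28 against 36.5 dpp by 2.53 ± 0.32 (SE, adjusted p = 0.000179). With scaling to Sertoli cell markers the first became -0.42 and the second 0.34, neither called. The rise from D6 to D28 did not pass the test over culture times (F test, adjusted p = 0.108), and was called without D28 replicate 2. *Hsd11b1* too is in the list that the study chose from the comparisons with 14.5 dpp. While it rose, the Leydig cell sum was low, as given above, and the sum of 6 macrophage markers lay between 17.1 and 34.9 FPKM in culture. The macrophage sum was 16.2 to 16.7 FPKM at 14.5 dpp, 111 to 128 FPKM at 36.5 dpp and 212 to 260 FPKM at 53.5 dpp. From 36.5 to 53.5 dpp, however, none of the 6 genes was called by limma or had an unadjusted p under 0.05. The sum therefore does not stand for the list as a whole or for the number of macrophages. The part of either sum in the rise of *Hsd11b1* was not tested.

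Genes that work beside *Hsd11b1* differed less than it did between 14.5 dpp and D28. Between 36.5 dpp and D28 this did not hold for *H6pd*. These genes were singled out after their values were seen. *H6pd*, whose product supplies the enzyme with reducing power, had a mean of 8.39 ± 0.21 FPKM (SD, n = 2) at 14.5 dpp and of 15.6 ± 0.79 FPKM (SD, n = 3) at D28, a difference of 0.82 ± 0.12 (SE) that missed the ratio of 2. The ratio of *Hsd11b1* to *H6pd* was 0.151 and 0.171 at 14.5 dpp and between 0.588 and 1.76 in the cultured libraries. Against matching ages it was higher at D16 (0.600 to 0.866) than at 24.5 dpp (0.396 to 0.469), lower at D22 (0.726 to 1.38) than at 30.5 dpp (1.46 to 2.90), and overlapped between D28 (0.849 to 1.76) and 36.5 dpp (0.859 to 2.03). *Hsd11b2*, which inactivates glucocorticoid, fell from 14.3 ± 0.61 FPKM at 8.5 dpp to 4.35 ± 0.39 FPKM (SD, n = 3) at D6 (-1.51 ± 0.09, SE, adjusted p = 3.88e-05). At D28 it stood at 2.13 ± 0.38 FPKM, near the 2.72 ± 0.43 FPKM (SD, n = 2) of 14.5 dpp (-0.25 ± 0.20, SE, F test, adjusted p = 0.31). *Nr3c1*, the glucocorticoid receptor gene, was at 31.9 ± 2.1 FPKM at 14.5 dpp and at 19.6 ± 3.2 FPKM (SD, n = 3) at D28, again without reaching the ratio of 2. Against 36.5 dpp, D28 explants were higher in *H6pd* by 2.64 ± 0.12 (SE) and in *Nr3c1* by 2.06 ± 0.14 (SE), beside 2.53 for *Hsd11b1*.

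*Sult1e1* was listed at 0 in 27 of 29 libraries. The exceptions were 8.5 dpp replicate 2, at 0.105 FPKM, and 14.5 dpp replicate 2, at 0.123 FPKM. No explant library was above 0.

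The other genes of these pathways came from lists of their own. For D28 against 14.5 dpp the adjusted p-values of list genes are those of the F test over D16, D22 and D28. Of 25 other androgen and oestrogen converting enzymes 13 were tested at D28 against 14.5 dpp, and 1 was called higher, 1 lower. *Srd5a3*, a reductase of the same family as *Srd5a1* that also serves protein glycosylation, rose from 35.5 ± 1.28 FPKM (SD, n = 2) to 72.0 ± 1.72 FPKM (SD, n = 3), by 0.998 ± 0.10 (SE, adjusted p = 0.000482). *Hsd17b7*, known for a step of cholesterol synthesis as well as for reducing oestrone, fell by 1.01 ± 0.21 (SE, adjusted p = 0.0134). The median over the tested genes of the list was 0.07, beside -0.08 over all genes. *Srd5a2*, the other 5α-reductase, had no group mean above 0.202 FPKM.

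At D6 the enzymes *Hsd17b3* and *Cyp7b1* were the 2 of that list called higher than at 14.5 dpp. *Hsd17b3*, which makes testosterone from androstenedione, stood at 4.42 ± 0.26 FPKM (SD, n = 3) at D6 and 1.02 ± 0.21 FPKM (SD, n = 2) at 14.5 dpp (1.43 ± 0.13, SE, adjusted p = 0.00239). It was at 9.04 ± 0.45 FPKM at 8.5 dpp and went down to 0.521 ± 0.52 FPKM (SD, n = 3) at D28. It is one of the 7 Leydig cell genes of the sum above, of which the other 6 were called lower at D6.

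At D28 against 14.5 dpp limma called none of 6 electron donors of steroid enzymes and none of 6 conjugation genes, although 5 and 3 of them had an unadjusted p under 0.05 and fell short of the ratio of 2 or of the adjusted p. Receptors other than the 2 members were called higher in 3 of 8 tested. *Esrrg*, an orphan receptor of the oestrogen-related family, rose by 0.96 ± 0.16 (SE, adjusted p = 0.00657), and *Nr3c2*, the mineralocorticoid receptor gene, by 0.82 ± 0.11 (SE, adjusted p = 0.00187). Of 8 coregulators 1 was called lower, *Foxa1*, a pioneer factor (-0.56 ± 0.09, SE, adjusted p = 0.00136). None of the 9 regulators of gonadal aromatase was called by limma, and 6 of them had an unadjusted p under 0.05.

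Response genes went both ways. Of 14 tested genes known to respond to oestrogen in other tissues, 3 were called higher and 2 lower at D28 against 14.5 dpp, with a median of 0.40. *Krt19*, a keratin gene, was called higher, being listed at 0 in both 14.5 dpp testes and at 1.84 ± 0.71 FPKM (SD, n = 3) at D28. *Cxcl12*, a chemokine gene, rose by 1.30 ± 0.20 (SE, adjusted p = 0.00394), while *Ccnd1*, a cyclin gene, fell by 1.15 ± 0.17 (SE, adjusted p = 0.00167) and *Igf1*, a growth factor gene, by 1.04 ± 0.29 (SE, adjusted p = 0.0444). All 4 are known to respond to other signals as well.

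Of 7 tested androgen-responsive genes 3 were called lower and none higher at D28, with a median of -0.64. *Eppin*, a protease inhibitor gene of Sertoli cells and sperm, fell by 1.34 ± 0.40 (SE, F test, adjusted p = 0.0045). For D28 alone limma gave *Eppin* an adjusted p of 0.0233, and its 2 testes of 14.5 dpp had a SD of 61.2 around 95.7 FPKM. *Fkbp5*, a co-chaperone of steroid receptors, fell from 57.6 ± 0.0149 to 23.1 ± 1.37 FPKM (-1.29 ± 0.12, SE, adjusted p = 0.000251). Both *Fkbp5* and *Tsc22d3*, which fell by 1.07 ± 0.10 (SE, adjusted p = 0.000262), are also in the list of glucocorticoid-responsive genes. Of the 8 genes of that list 2 were called lower and 1 higher, *Sgk1*, a kinase gene (0.99 ± 0.18, SE, adjusted p = 0.00226), with a median of -0.39.

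**Figure D5:**
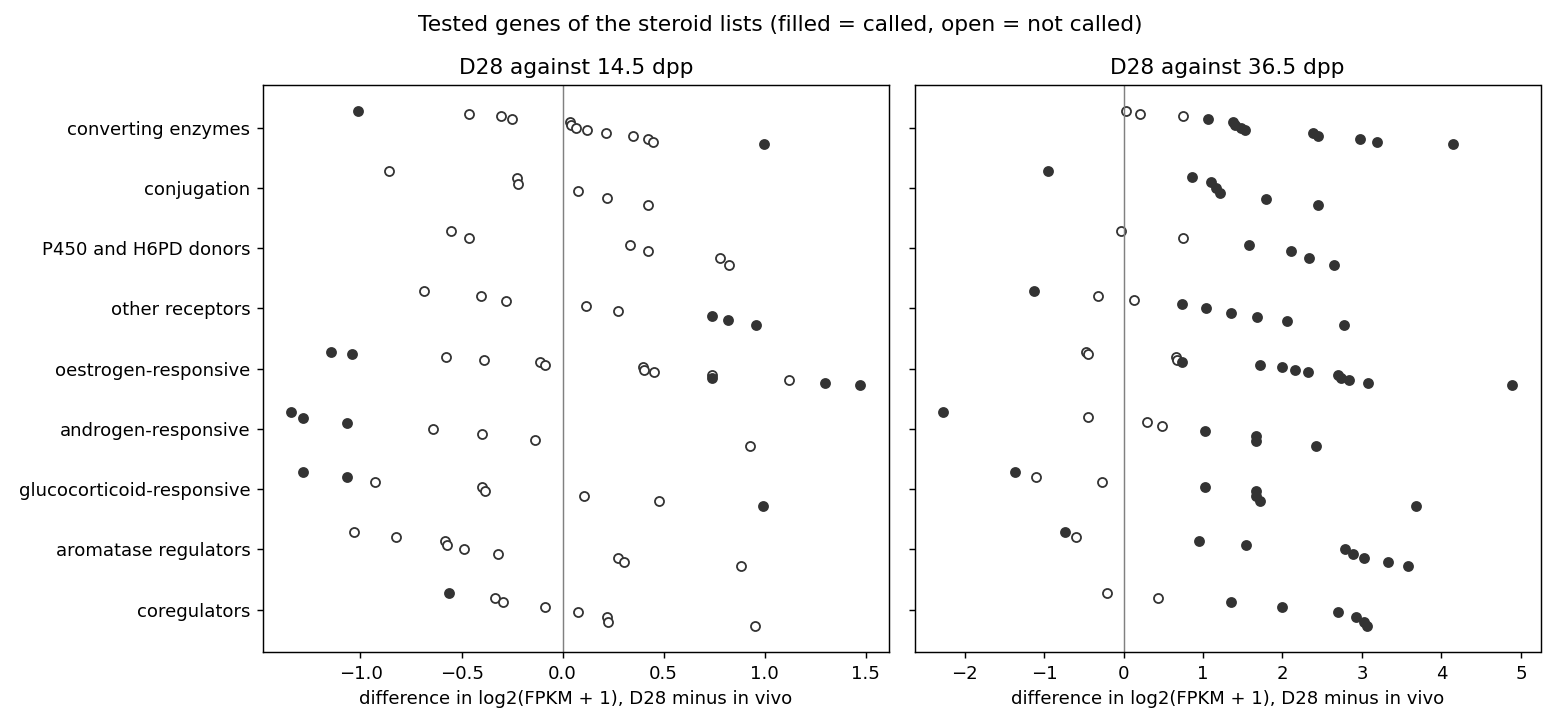
Difference in log2(FPKM + 1) of each tested gene of 9 steroid lists at D28, against 14.5 dpp (left) and 36.5 dpp (right), with filled points for called genes. Against 14.5 dpp most points are open and lie on both sides of 0; against 36.5 dpp most are filled and above 0, where the median of all genes tested was 0.64.

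Against 36.5 dpp the same lists were mostly higher at D28, as were many genes. Of all 12210 genes tested 8585 were called, and 5701 were called higher. With median scaling 4205 of the 8020 called were higher, and with scaling to Sertoli cell markers 1076 of 7882. Of the converting enzymes 10 of 13 were called higher (median 1.47), of the conjugation genes 6 of 7, of the donors 4 of 6 and of the receptors 6 of 9. *Srd5a3* (4.15 ± 0.15, SE) and *Akr1c19* (3.19 ± 0.19, SE) led the first list, and *Papss1* (2.45 ± 0.11, SE), which makes the sulfate donor, the second. *H6pd*, given above, and *Fdxr*, a mitochondrial reductase that passes electrons to steroid enzymes (2.33 ± 0.14, SE), led the donors. *Sult2b1*, a cholesterol sulfotransferase, and *Esrrb*, an orphan receptor listed at 0 in all D28 libraries, were lower.

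The response lists showed the same lean against 36.5 dpp. Of the oestrogen-responsive genes 10 of 14 were higher, led by *Igfbp4* (4.89 ± 0.25, SE) and *Cxcl12* (3.08 ± 0.25, SE). Of the androgen-responsive genes 4 of 8 were higher and 1 lower, *Cldn3*, a tight junction gene (-2.27 ± 0.13, SE), and *Tsc22d3* was among those higher (1.67 ± 0.09, SE). Of the glucocorticoid-responsive genes 5 of 8 were higher, *Sgk1* by 3.69 ± 0.19 (SE), and *Klf9*, a transcription factor gene, was lower (-1.37 ± 0.16, SE). Of the aromatase regulators 7 of 9 were higher, with *Nr5a1* (3.58 ± 0.15, SE) and *Wt1* (3.33 ± 0.17, SE) in front, and *Creb1*, a transcription factor gene, was lower (-0.73 ± 0.28, SE, adjusted p = 0.0424). *Wt1*, *Fshr*, *Amh* and *Inha* of this list are also among the Sertoli cell markers, so the 2 lists are not separate. *Cyp19a1* was listed at 0 in the same D28 libraries.

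The marker lists at D28 against 14.5 dpp gave 5 of 7 Leydig cell genes lower, 4 of 5 peritubular myoid genes lower, and 1 of 9 Sertoli, 2 of 6 interstitial and 2 of 5 macrophage genes higher. One endothelial gene of 5 was higher and 1 lower, and 1 of 6 spermatogonia genes was lower. No spermatocyte, spermatid, adipocyte or adrenal cortex marker was called, of 7, 5, 2 and 1 tested by limma, of which 3, 3, 1 and 0 had an unadjusted p under 0.05, while 1 of 2 epididymal genes was higher. The adrenal markers *Cyp11b1* and *Cyp11b2*, which make the glucocorticoid and mineralocorticoid of that gland, were at 0 in every cultured library. They were also at 0 in every testis of 14.5 dpp and older. The sum of all 4 adrenal markers lay between 1.14 and 1.85 FPKM at D28. It lay between 0.742 and 0.868 FPKM at 14.5 dpp and did not pass 0.200 FPKM at 36.5 dpp.

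The genes most alike to a member in Pearson correlation of log2(FPKM + 1) over the 29 libraries, among 12762 genes, shared with it the ages and the culture. For *Cyp19a1* they were *Eloa2l* (0.96), *Ago4* (0.93) and *Slc4a10* (0.92). For *Hsd17b1* the values were 0.94 for each of *Jade1*, *Evi2a* and *Eif4e3*, and for *Akr1c14* 0.97 for *Mturn*, 0.96 for *Cavin2* and 0.95 for *Gli3*. *Srd5a1* was closest to *Dctn5* (0.90), *Polr3d* (0.88) and *Eif2b1* (0.87). *Hsd11b1* was closest to *Slc25a34* (0.92), *Pla2g7* (0.88) and *RT1-CE2* (0.87), and *Esr1* to *Lsp1* (0.86), *Rai14* (0.82) and *Olfm1* (0.80). Among the members themselves the highest value was 0.70, between *Akr1c14* and *Hsd17b1*.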

How the data were processed

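Poly(A) RNA of the 29 libraries was sequenced by the authors as short single reads, aligned with STAR 2.5.2a to rn6 and assembled against RefSeq transcripts, and the deposited gene values are in FPKM, whose scaling to mapped reads makes each value depend on the other genes. Of 17322 Entrez identifiers, 17172 were named from the RefSeq table of GRCr8, used for names and promoters alone. Groups were compared with limma 3.58.1 (R 4.3.3) on log2(FPKM + 1) after a floor of 0.5 FPKM in the median of a compared group, with Benjamini-Hochberg adjustment over all genes tested. An F test covered D16, D22 and D28 against 14.5 dpp, all ages, and all culture times; matched ages had fits of their own, and steps between ages came from the fit over all ages. The members and gene lists were chosen with earlier results of these data known. Genes of the lists were named where they were the 2 largest called rises or falls at D28, with exceptions stated and 1 gene not reported here; for alikeness, the 3 highest correlations per member. Numbers of replicates were not used to pair libraries in the main fits. Pseudocount, filter, scaling, prior, test, block and left-out libraries were varied. The fits were tested on simulated data with changes set in well-expressed genes only, which does not cover members at low levels such as *Cyp19a1*, *Esr1* and *Hsd17b1*.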

Additional observations from a re-analysis of the deposited data

Results flagged for a closer look

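The change over time differed between culture and testis for 2 of the 5 members that could be tested, by an interaction term in limma over 14.5 dpp, 36.5 dpp, D6 and D28 that was chosen after the values were seen. *Akr1c14* changed by -0.40 on the log2(FPKM + 1) scale from D6 to D28 and by -2.78 from 14.5 to 36.5 dpp, a difference of 2.38 ± 0.38 (SE, adjusted p = 0.000209). *Hsd17b1* changed by 0.24 in culture and by -1.36 in vivo, a difference of 1.60 ± 0.19 (SE, adjusted p = 2.16e-05). Of all genes tested 57.6% were called in this test, so that such a difference was common. For *Esr1*, *Srd5a1* and *Hsd11b1* the differences were 0.42, 0.06 and 0.33, with adjusted p-values of 0.122, 0.838 and 0.491. With scaling to Sertoli cell markers the differences of *Akr1c14* and *Hsd17b1* became -0.14 and -0.92, and those of *Esr1*, *Srd5a1* and *Hsd11b1* -2.10, -2.46 and -2.19. The cause was not tested.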

How the results depend on the processing

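Of 1539 differences of single members recomputed under an alternative, 1422 kept direction and side of the threshold, 62 lost a call, 14 gained one, 14 changed sign with a call on one side, and 27 changed sign uncalled. All 14 reversals came from scaling to Sertoli cell markers, which themselves differ between culture and testis. They were, for the difference of changes over time given above, *Esr1* (-2.10), *Srd5a1* (-2.46), *Akr1c14* (-0.14), *Hsd11b1* (-2.19) and *Hsd17b1* (-0.92), at D22 against 30.5 dpp *Esr1* (-1.59), *Akr1c14* (-1.45), *Hsd11b1* (-0.42) and *Hsd17b1* (-1.21), at D28 against 36.5 dpp *Esr1* (-2.13), *Akr1c14* (-1.30) and *Hsd17b1* (-1.08), and at 30.5 against 24.5 dpp *Cyp19a1* (0.82) and *Hsd17b1* (0.64). With that scaling the median over all genes was -1.39, -1.54 and 0.81 in these comparisons. The number of members called at D6 against 14.5 dpp went from 3 to 1 with no filter, with Sertoli scaling and with the replicate block, and to between 1 and 2 without single libraries. The replicate block also took the count at 14.5 against 8.5 dpp from 1 to 0, as did a pseudocount of 0.1, no filter, quantile normalization, median and Sertoli scaling (0 to 1 without single libraries), and it moved no other count of members by over 1.5 times. Same-numbered libraries correlated between -0.131 and 0.218 in their deviations. Groups this small cannot show whether the numbers pair libraries, and the main fits did not treat them as pairs. At 30.5 against 24.5 dpp the count went from 2 to 1 with a filter at 1 FPKM and with median scaling, and between 1 and 4 without single libraries, the lowest without 24.5 dpp replicate 3 and the highest without 24.5 dpp replicate 1. At 36.5 against 30.5 dpp it went from 1 to 0 with quantile, median and Sertoli scaling and between 0 and 1 without single libraries. At D16 against 24.5 dpp it was 2 to 4 without single libraries, and across culture times 1 with Sertoli scaling or no fold rule and 0 to 1 without single libraries. The causes were not tested. The unknown read depth limits *Cyp19a1*, *Esr2* and *Sult1e1* most.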
